A study of Mus musculus with 2 samples.

Results

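The DNA replication genes examined here were 48 genes that license, unwind, prime, copy and ligate DNA in S phase, together with the enzymes that supply its nucleotides. They were chosen by gene symbol and function, in 11 groups, with earlier results of these data known. All 48 were found among the 26082 genes listed for both libraries. All 48 had more than 3 counts, the floor taken for detection, as did 21364 genes in at least one of the libraries. The RNA came from primary mouse fibro-adipogenic progenitors (FAPs), the mesenchymal cells of skeletal muscle that can become adipocytes, of wild-type genotype. One group was transfected with TGFBR3 overexpressing plasmids and the other with the vector, and both groups were under adipogenic differentiation, in medium holding insulin at 10 μg/ml, dexamethasone at 0.25 μM, IBMX at 0.5 mM and FBS at 20%. Each group is 1 library, so no difference has a replicate check, no p-value is given, and the age and number of donor mice, the promoter of the plasmid and the hours of induction are not given in the labels.

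DNA replication begins at origins bound by the origin recognition complex (ORC). In G1, ORC, CDC6 and CDT1 load the ring of MCM2 to MCM7 onto DNA. At the start of S phase the kinase CDC7 with DBF4, and then CDC45 and the GINS complex, turn this ring into a moving helicase, behind which polymerase α-primase starts each strand and polymerases δ and ε extend it on the sliding clamp PCNA. Transcription of many of these genes is known to be periodic, with E2F factors acting on their promoters, and cells that leave the cycle to differentiate lower them.

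The labels were checked first. The overexpressed gene, Tgfbr3, had FPKM values (fragments per kilobase of exon, scaled to the size of the library) of 36.9 and 35.1 in the libraries labelled TGFBR3 overexpression and vector control, a log2 ratio of 0.07, so this transcript does not bear out the labels and every direction here is between libraries as labelled. The paper describes an RT-PCR of this gene in FAPs given the plasmid or the vector, and does not name the species of the insert. Whether RNA of the insert would be counted as mouse Tgfbr3 was not tested. The libraries held 62321027 and 83779203 counts. The FAP markers Pdgfra, at 30.5 and 32.6, and Ly6a, at 1013 and 706, were abundant, whereas summed FPKM was 1.64 and 1.33 over the 5 measured muscle cell markers, 2.17 and 2.03 over 6 endothelial markers, 0.91 and 0.54 over 9 macrophage and blood cell markers, and 0.31 and 0.21 over 5 Schwann cell and pericyte markers. Ptprc, Adgre1, Tyrobp and Fcer1g were listed at 0 in both libraries. Over the 10 FAP markers the sums were 1888 and 2219, with the collagen gene Col1a1 at 467 and 870, while Pi16 and Lum were below 0.3 in both libraries. Of these 10, 3 were higher and 7 lower. By log2 of (FPKM + 1), 4 were at least 1.5-fold lower, against 2.85% of all genes tested. Dpt (3.48 and 8.72) and Col3a1 (95.8 and 199) were more than 2-fold lower. The part of these differences in the results below was not tested.

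Sequences upstream of some of these genes are shown for the E2F motif, which was more frequent in them than in other genes. The selection did not use the motif. Many of the selected genes are known E2F targets, however, so this excess is not independent of the selection. RefSeq promoter windows of 300 bases, from 250 before to 50 after the annotated start (GRCm38.p6, which is mm10), were at hand for 39 of the genes. The letters searched on both strands were TTTCCCGC, TTTGGCGC, TTTCGCGC and TTTGCCGC. They occurred in 15 of the 39 genes (38.5%), against 689 of 26986 other genes (2.55%), and against 4.62% of the 8195 others that were expressed, here meaning an FPKM that averaged 1 or more over the pair of libraries. Among expressed replication genes the share was 11 of 33 (33.3%). Of the 21 matches, 1 overlapped a CCAAT or CCGGAA motif. The following stretches of 60 bases lie wholly upstream of the RefSeq start and read 5′ to 3′ along the gene's strand, with the match in capitals. By the gene bounds of the GENCODE M21 annotation, the Cdc6 stretch lies inside the gene. Those of Orc1 and, below, Pold2 lie partly inside it. Mcm5 and Mcm6 were chosen as subunits of one ring whose levels differed in opposite directions, Orc1 and Orc3 as ORC subunits, and Cdc6 and Pola1 as genes of licensing and priming. In Mcm5 and Mcm6, pairs of matches on opposite strands overlap within the capitals.
Mcm5, chr8:75109330-75109389, plus strand: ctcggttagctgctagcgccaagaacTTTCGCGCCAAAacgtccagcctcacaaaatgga
Mcm6, chr1:128359782-128359841, minus strand: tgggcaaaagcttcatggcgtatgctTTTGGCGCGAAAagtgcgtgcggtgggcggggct
Orc1, chr4:108579394-108579453, plus strand: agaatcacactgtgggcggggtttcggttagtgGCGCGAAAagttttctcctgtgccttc
Orc3, chr4:34614950-34615009, minus strand: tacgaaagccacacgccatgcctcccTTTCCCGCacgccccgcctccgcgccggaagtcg
Cdc6, chr11:98907987-98908046, plus strand: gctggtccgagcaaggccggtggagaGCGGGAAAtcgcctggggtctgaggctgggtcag
Pola1, chrX:93632260-93632319, minus strand: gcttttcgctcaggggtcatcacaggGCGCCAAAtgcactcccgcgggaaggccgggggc

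The promoter of Pold2, the gene with the lowest log2 ratio, held no match to these letters. It is shown with its CCAAT motif, read on the opposite strand, in capitals.
Pold2, chr11:5878272-5878331, minus strand: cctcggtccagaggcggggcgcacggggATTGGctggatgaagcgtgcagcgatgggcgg

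CCAAT was found in 59.0% of the 39 genes and in 41.0% of other genes, and the ETS core CCGGAA in 53.8% and 16.6%, or 33.2% of the expressed others. The motif did not mark the genes that differed most. The 15 genes with an E2F match had a median log2 ratio of 0.14, with 10 higher and 5 lower, and the 24 without one had a median of 0.08, with 16 higher and 8 lower. A match is a run of letters and was not tested as a binding site.

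The replication genes as a whole stood close to the typical gene. Their log2 ratios of (FPKM + 1), TGFBR3 overexpression over vector control, ran from −0.57 in Pold2 to 0.90 in Orc4, with a median of 0.10, and 32 were above 0 while 16 were below. Of the 21364 genes tested, 62% were above 0, against 66.7% of the 48. Over 10626 genes at FPKM 1 or more in each library the median was 0.13, and values relative to this median gene are given as centred. Centred, the 48 genes had a median of −0.02, with 23 (47.9%) higher and 25 lower, where 40.1% of all genes tested were higher. At a threshold of 1.5-fold, 1 gene (Orc4) was higher and none was lower, where 7.89% of all genes tested were higher and 2.85% were lower. None was 2-fold different in either direction on this scale, where 1.73% of genes were 2-fold higher and 0.58% were 2-fold lower. Because the added 1 narrows the ratios of low genes, the counts were repeated over the 11213 expressed genes, to which 40 of the 48 belonged. Dbf4 belonged to the 40 only through the library labelled TGFBR3 overexpression, being at FPKM 0.80 in the other. Of these 40, 1 was 1.5-fold higher and none was lower, against 13.3% and 4.91% of expressed genes, and none was 2-fold different, against 3.14% and 1.03%. Above 0 were 27 of the 40 (67.5%) and 63.1% of expressed genes, and above the median gene were 20 of the 40 and 51.3%. The middle 50% of the 40 log2 ratios lay between −0.06 and 0.36, and that of the 11213 genes between −0.14 and 0.40.

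**Figure D1:**
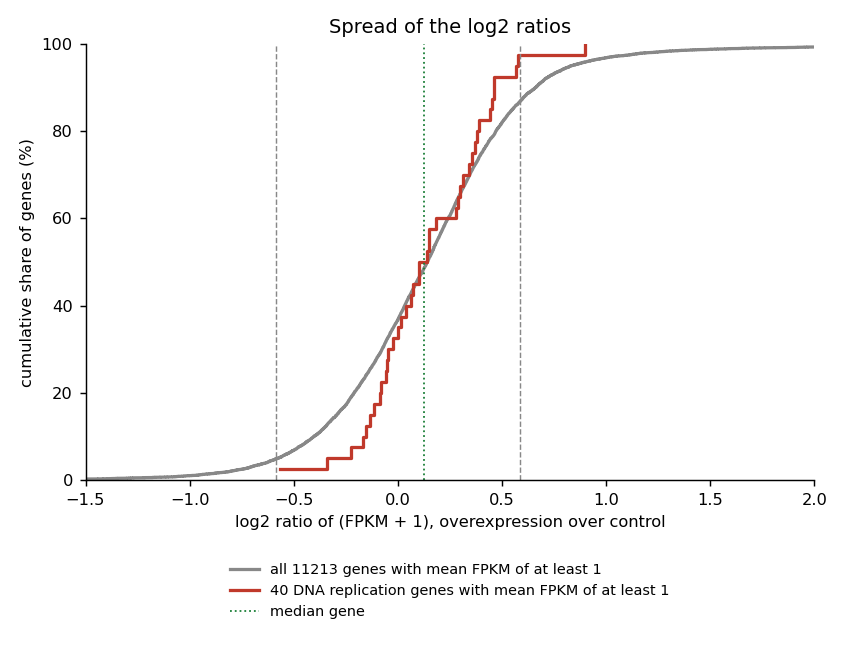
Cumulative share of genes (%) against the log2 ratio of (FPKM + 1), for the 11213 expressed genes (grey) and the 40 DNA replication genes among them (red). The curves cross near the median gene (dotted, 0.13), and beyond the dashed 1.5-fold lines the red curve holds 1 gene, Orc4; the axis ends before the most extreme genes.

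**Figure D2:**
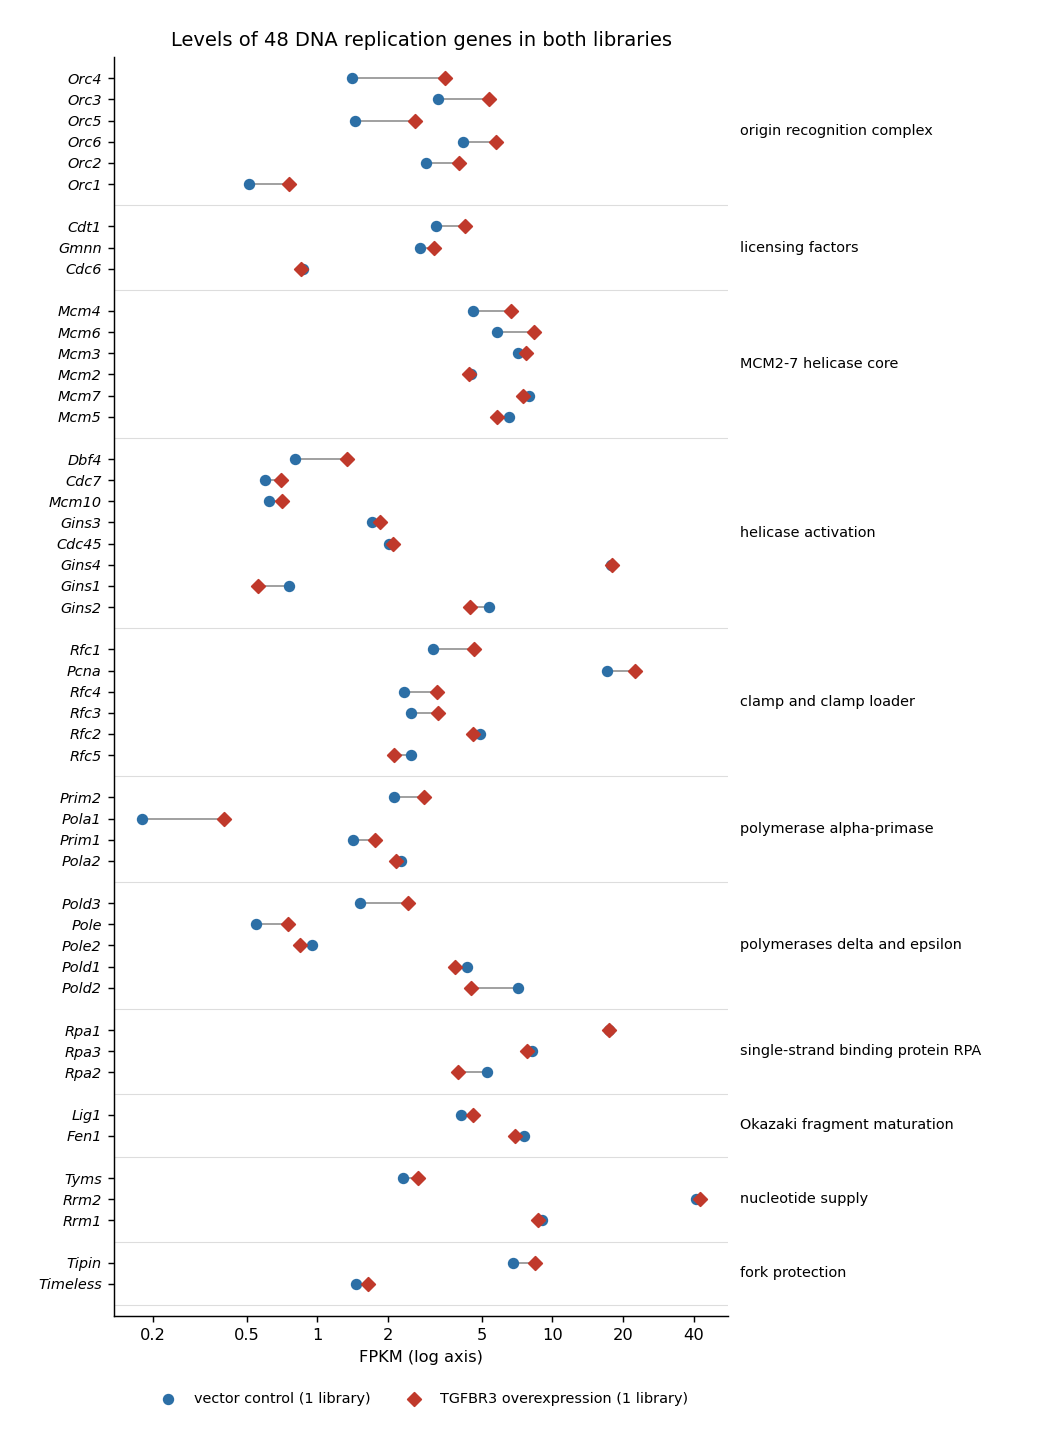
FPKM of the 48 genes on a log axis, grouped by function, with 1 point for each library (blue circle, vector control; red diamond, TGFBR3 overexpression). Levels run from 0.18 in Pola1 to 42.4 in Rrm2, and the points of all 6 ORC genes lie further right in the library labelled TGFBR3 overexpression.

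As measured, the origin recognition complex was the group whose median lay furthest from the median gene, but with the trend over GC content removed its median was 0.12, nearer to 0 than those of RPA (−0.44), nucleotide supply (−0.23), polymerase α-primase (−0.18) and helicase activation (−0.14). The last of these groups hold low genes, whose values with the trend removed rest on the scale. All 6 ORC genes were higher in the library labelled TGFBR3 overexpression, with a median log2 ratio of 0.48 and a centred median of 0.35. ORC opens licensing by binding origins, and its subunit ORC1 is the one whose level is known to cycle. Orc4 (ENSMUSG00000026761, chromosome 2 of mm10, 48902824 to 48950277) had an FPKM of 3.48 against 1.40, from 1767 and 972 counts, which is 2.49-fold without the added 1. Its log2 ratio was 0.90 (95% counting interval 0.82 to 0.97). Orc3 had 5.37 against 3.27, a log2 ratio of 0.58 (0.51 to 0.65). Orc4 was thus past 1.5-fold, and Orc3 lay just short of that threshold.

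Orc5 was at FPKM 2.61 and 1.44, with a log2 ratio of 0.57 (0.48 to 0.65). Orc6 had 5.75 and 4.16, and Orc2 had 4.01 and 2.91. Orc1 was the least expressed, at 0.76 and 0.51, with a log2 ratio of 0.22 (0.10 to 0.34). The added 1 weighs on this low level, and by the plain ratio Orc1 (0.58) stood above Orc2 (0.46) and Orc6 (0.47). The 3 subunits with the largest ratios were also those with the lowest GC content in their transcripts, 36.8% in Orc4, 38.2% in Orc5 and 38.6% in Orc3. With the trend of expressed genes over GC content removed, Orc4 stood at 0.48, Orc3 at 0.15, Orc5 at 0.14 and Orc6 at 0.10, while Orc1 was at −0.05 and Orc2 within rounding of 0. The value of Orc1 rests on the scale, since the added 1 narrows its ratio more than in the expressed genes that set the trend. Part of Orc4's exons, 5.98%, overlaps Acvr2a on the opposite strand, and of Orc2's, 29.8% overlaps Nif3l1. The paper names a stranded library kit, but reads of these pairs could be confused if strand was not used in the counting.

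The licensing factors that bring the helicase to ORC differed from each other. Cdt1, which loads the MCM ring, was at FPKM 4.23 and 3.21, with a log2 ratio of 0.31 (0.21 to 0.42). Its transcript is rich in GC (57.8%), and with the GC trend removed its value was 0.40. Gmnn, which encodes the CDT1 inhibitor geminin, was at 3.14 and 2.73 (0.15, −0.01 to 0.32). Cdc6, the ATPase that loads MCM with ORC, was at 0.85 and 0.87 (−0.02, −0.12 to 0.08). For Gmnn and Cdc6 the interval includes 0, so no difference from 0 was detectable from these counts. That of Cdc6 lay wholly below the median gene (0.13), and that of Gmnn includes it.

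The 6 genes of the MCM ring, which act in equal numbers in the helicase, split evenly around 0. Their levels were alike, from FPKM 4.43 to 8.32 under the TGFBR3 overexpression label and from 4.52 to 7.97 under the control label, a 1.88-fold and a 1.76-fold range. Mcm4 was higher, at FPKM 6.69 against 4.59, with a log2 ratio of 0.46 (0.37 to 0.55). Mcm6 was at 8.32 against 5.81, with a log2 ratio of 0.45 (0.38 to 0.52). Mcm5 was lower, at 5.78 against 6.54, with a log2 ratio of −0.15 (−0.23 to −0.08). Mcm6 therefore held 20.6% of the ring's summed FPKM in one library and 15.9% in the other, and Mcm5 14.3% and 17.9%.

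Mcm3 (7.71 and 7.12), Mcm2 (4.43 and 4.52) and Mcm7 (7.46 and 7.97) had log2 ratios between −0.08 and 0.10. Mcm4 and Mcm6 kept values above 0, and Mcm5 and Mcm7 kept values below 0, under each planned scaling. Mcm4 and Mcm6 have the lowest GC content of the 6, 45.5% and 47.3%, and with the GC trend removed the 6 values ran from −0.25 in Mcm5 to 0.18 in Mcm6. Of Mcm7's 31-base words, 33.4% occur in transcripts of other genes, with a processed pseudogene, Gm5487, sharing the most, so its level is less certain than those of the others.

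The factors that activate the helicase had log2 ratios near 0. Cdc45, part of the moving helicase, was at FPKM 2.09 and 2.01. Mcm10, needed to fire origins, was at 0.71 and 0.62. Cdc7, the kinase that phosphorylates MCM, was at 0.70 and 0.60. For these 3 genes the counting interval includes 0. Dbf4, the activating partner of CDC7, had 1.34 against 0.80, and a log2 ratio of 0.38 (0.30 to 0.45), or 0.74 without the added 1.

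Of the GINS subunits, Gins4 had the highest FPKM, 18.0 and 17.8, from 1646 and 2220 counts over 1349 exon bases. Gins2 had 1243 and 2043 counts over 4097 merged exon bases, so its gap to Gins4 in FPKM rests largely on exon length. Gins3 was at 1.84 and 1.70. Gins2 was at 4.47 and 5.39 (−0.22, −0.31 to −0.14), but 67.3% of its exons overlap Gse1 on the opposite strand. Gins1 was at 0.56 and 0.76, from 58 and 107 counts, the fewest of any of the 48 genes in either library. Its interval of −0.35 to 0.01 includes 0 but lies below the median gene, and its value was below 0 in every planned setting, from −0.45 to −0.14. With the GC trend removed, all 8 activation genes were below 0, with a median of −0.14, whereas 6 of 8 were above 0 as measured. That trend comes from expressed genes, while Mcm10, Cdc7 and Dbf4 are low and the added 1 narrows their ratios. Dbf4, at 0.74 by the plain ratio, thus stood at −0.05, so the count of 8 rests on the scale.

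The sliding clamp was higher and its loader was uneven. Pcna, whose product encircles DNA and tethers the polymerases, was at FPKM 22.4 and 17.1, from 3647 and 3797 counts, with a log2 ratio of 0.37 (0.31 to 0.43). Pcna-ps2, a processed pseudogene, is the largest source of the 23.3% of its words that other transcripts share. Rfc1, the large subunit of the loader, was at 4.65 and 3.10 (0.46, 0.39 to 0.54). Rfc3 (0.29) and Rfc4 (0.34) were higher as well, whereas Rfc2 (−0.08, −0.15 to −0.01) and Rfc5 (−0.17, −0.26 to −0.07) were lower. With the GC trend removed, Rfc1 (0.17) and Pcna (0.08) were above 0 and the other 4 were below it.

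Among the polymerases, Pold3 and Pold2, which encode accessory subunits of polymerase δ, differed in opposite directions. Pold3 was higher, at FPKM 2.42 and 1.52 with a log2 ratio of 0.44 (0.34 to 0.54). Pold2 (ENSMUSG00000020471, chromosome 11 of mm10, 5872180 to 5878292) was lower, at 4.51 and 7.16 from 583 and 1257 counts, with a log2 ratio of −0.57 (−0.68 to −0.44). The catalytic subunit gene Pold1 was at 3.84 and 4.32 (−0.14). Pold3 and Pold2 thus differed by 1.01 log2 units. They also differ in GC content, 48.5% and 58.7%. With the GC trend removed they stood at 0.25 and −0.46, and Pold1 at 0.13. Centred, Pold2 was at −0.69, which is past 1.5-fold, where 1 of the 48 was in each direction, against 4.55% of all genes tested that were higher and 4.8% that were lower by the same rule. Over expressed genes these shares were 7.85% and 8.09%, with 1 of 40 in each direction.

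Pole, the catalytic subunit of polymerase ε, was low, at 0.75 and 0.55 (0.18, 0.12 to 0.25), and Pole2 was at 0.84 and 0.95 (−0.08, −0.22 to 0.05). Pola1, which encodes the catalytic subunit of polymerase α, was the least expressed of the 48, at 0.40 and 0.18 from 240 and 147 counts. Its log2 ratio was 0.25, and 1.15 (0.85 to 1.46) without the added 1, so the size of this difference rests on the scale. The primase genes Prim1 (0.18) and Prim2 (0.30) were higher. Pola2 (−0.05, −0.13 to 0.02) was not distinguishable from 0 at this depth, though its interval lay wholly below the median gene. With the GC trend removed, all 4 genes of polymerase α-primase were below 0, from −0.33 in Pola2 to −0.08 in Prim2. For Pola1 this value, −0.18, also rests on the scale, since the added 1 narrows its ratio while the trend comes from expressed genes. By the plain ratio, 7 of the 48 genes were at least 1.5-fold higher (Orc3, Orc4, Orc5, Dbf4, Rfc1, Pola1 and Pold3) and 1 was lower (Pold2), against 25.8% and 9.4% of all genes tested. Over expressed genes 6 and 1 of the 40 passed, against 20.9% and 6.83%. Dbf4 is in these 40 only through the library where it was higher. At FPKM 1 or more in each library, 5 and 1 of 39 passed, against 1986 and 679 of 10626 genes.

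RPA, the trimer that coats single-stranded DNA, had one subunit gene that was lower, Rpa2, beside Rpa1 and Rpa3 whose intervals include 0, and the intervals of all 3 lay below the median gene. Rpa1 was at FPKM 17.3 in both libraries, from 6564 and 8933 counts, with a log2 ratio of 0.00 (−0.04 to 0.04). Rpa2 was lower, at 3.96 and 5.28 (−0.34, −0.44 to −0.24), and Rpa3 was at 7.81 and 8.18 (−0.06, −0.20 to 0.08). Rpa2 stayed below 0 in every planned setting, from −0.60 to −0.28. After removal of the GC trend Rpa3 stood at −0.48, the lowest of the 48 genes, Rpa2 at −0.44 and Rpa1 at −0.19, the group with the lowest median (−0.44). Fen1, the nuclease that trims Okazaki fragments, was lower, at 6.91 and 7.56 (−0.11, −0.21 to −0.02), and Lig1, the ligase that joins them, was higher, at 4.61 and 4.09 (0.14, 0.05 to 0.23). The interval of Lig1 includes the median gene, and its direction rests on the scaling, from −0.05 to 0.20 over the planned settings. Gm10143, annotated as antisense, overlaps 78.8% of the exons of Fen1, so its reads could be shared.

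Nucleotide supply had the highest summed FPKM of the 11 groups, 53.8 and 52.0. Rrm2, the cycling subunit of ribonucleotide reductase, had the highest level of the 48 genes, at FPKM 42.4 and 40.6, the 94.5th and 94.4th percentile of all genes tested. Its log2 ratio was 0.06 (0.02 to 0.10), from 7982 and 10401 counts. Rrm1, the large subunit, was at 8.69 and 9.03 (−0.05, −0.09 to −0.01). Tyms, which makes thymidylate, was at 2.67 and 2.31 (0.15, 0.06 to 0.23). The 3 log2 ratios span 0.20. With the GC trend removed they were all below 0, at −0.23, −0.43 and −0.13. The fork protection pair was higher, with Tipin at 8.45 and 6.78 (0.28, 0.17 to 0.39) and its partner Timeless at 1.64 and 1.46 (0.10, 0.01 to 0.19). The direction of both rests on the scaling, since Tipin was at −0.15 with the GC trend removed and Timeless at −0.02 when centred.

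**Figure D3:**
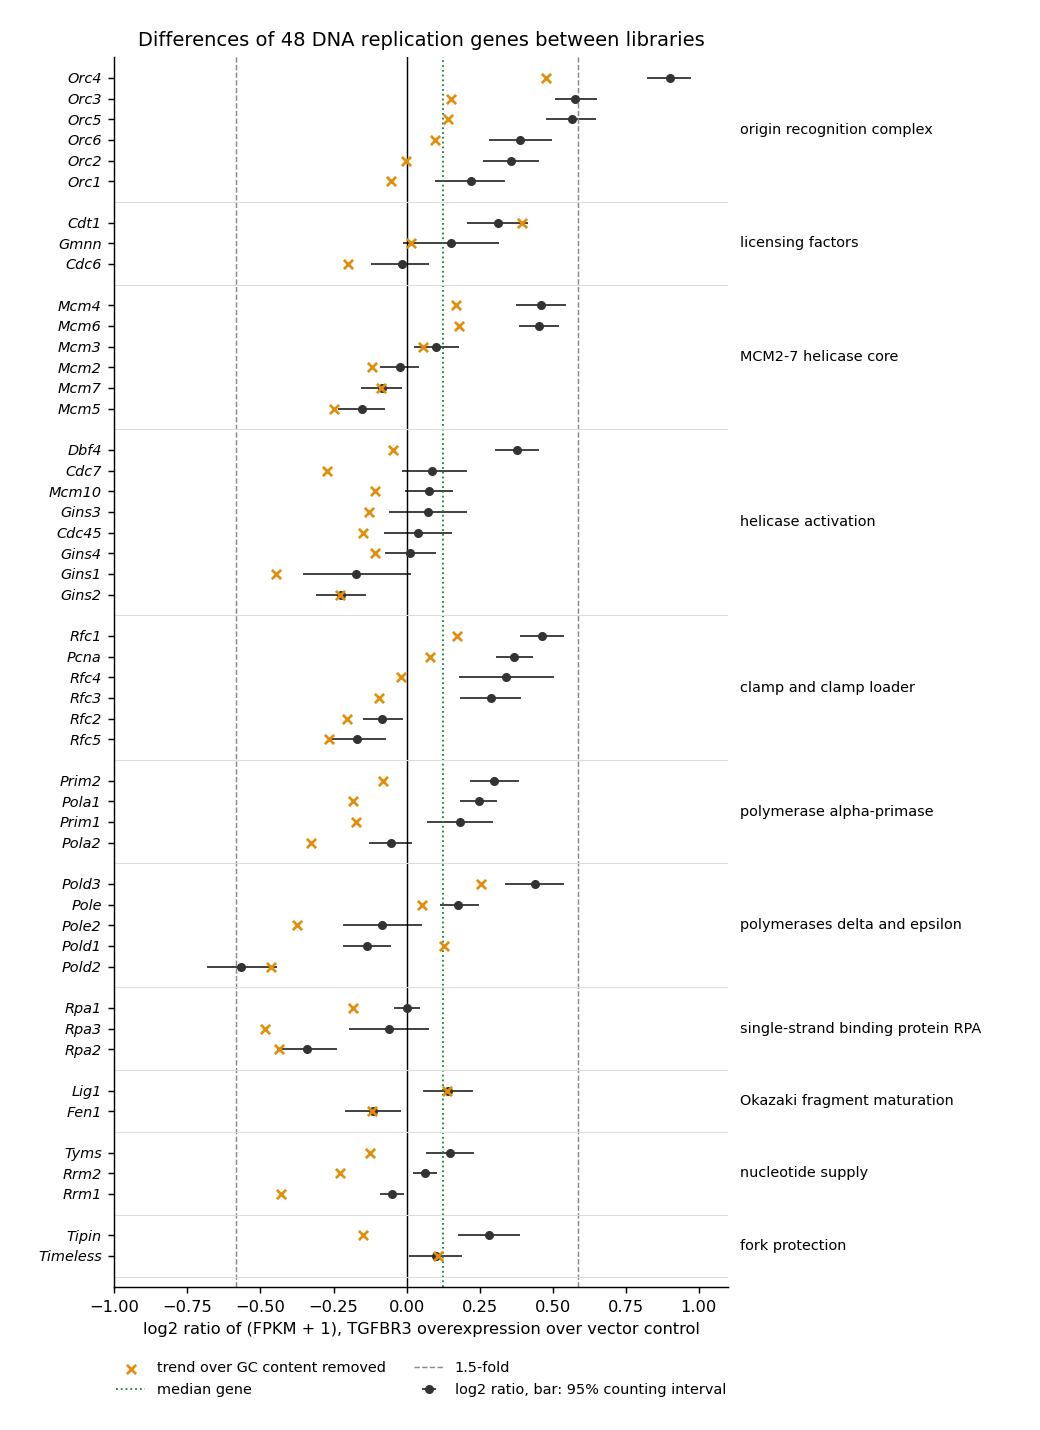
Log2 ratio of (FPKM + 1) of the 48 genes (black points, with 95% counting intervals) and the value with the trend over GC content removed (orange crosses), from 1 library per group. Orc4 lies past the dashed 1.5-fold line, Pold2 lies just inside it on the other side, and the crosses of 32 genes fall below 0. Of all genes tested, 12561 fell below 0 at this step and 8758 above. The dotted line is the median gene.

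GC content moved with these differences. Across the 48 genes the log2 ratio and the GC content of the longest transcript had a Spearman's rho of −0.57, and across 11207 expressed genes it was −0.46, a description of points that share the same pair of libraries. The median of the 11207 genes went from 0.42 in the lowest of 20 GC bins to −0.26 in the highest. After the bin medians were subtracted, the 48 genes had a median of −0.11, with 16 above 0 and 32 below, and no gene was 1.5-fold different. All genes tested then had a median of −0.07, with 8758 above 0 and 12561 below. The 40 expressed replication genes had a median of −0.09, with 15 above 0 and 25 below. By construction the expressed genes split into 5600 above and 5600 below. The group as a whole was therefore near the median gene as measured. With the GC trend removed, the medians of the 48 and of all genes tested both lay below 0, as did 25 of the 40. Exon length was less closely related, with a rho of 0.17 across the 48 genes. In bulk RNA, fewer cells in S phase and less RNA per cell cannot be told apart.

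**Figure D4:**
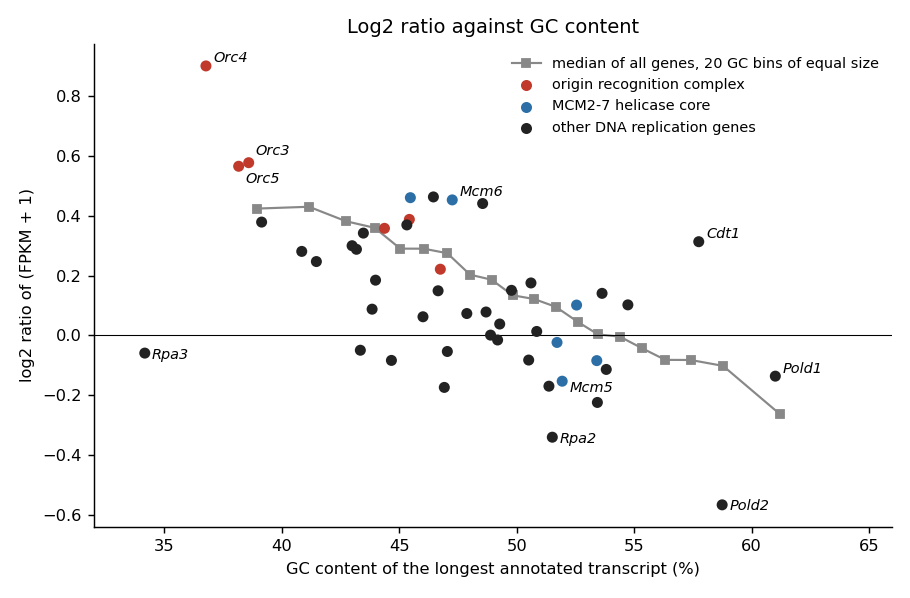
Log2 ratio of (FPKM + 1) against the GC content (%) of the longest annotated transcript for the 48 genes (points, with ORC in red and the MCM ring in blue), and the median of expressed genes in 20 GC bins (grey squares). The median falls from 0.42 to −0.26, Orc4 and Cdt1 lie above it, and Rpa3, Rpa2 and Pold2 lie below it.

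Many counting intervals lay clear of the median gene. For 17 of the 48 genes (35.4%) the counting interval lay wholly above the median gene and for 19 (39.6%) wholly below it, against 28.7% and 47.6% of all genes tested. Over expressed genes it was 16 of 40 each way, against 43.2% and 41.1%. Intervals cover counting error only and hold nothing of the difference between cultures. They compare these libraries, not the conditions.

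Other genes of replication and its control were taken from 6 lists. Beside their counts, 62% of all genes tested were above 0 and 40.1% were above the median gene. Of 18 E2F and RB family regulators, which set the timing of S phase transcription, 13 were higher and 5 lower, with a median log2 ratio of 0.26. E2f6, a repressor, was 1.5-fold higher, at FPKM 11.2 and 7.02, and E2f8, another repressor, was at 0.60 and 0.92 (−0.26). The activator E2f1 was at 15.4 and 16.9 (−0.13). Centred, the list split into 11 higher and 7 lower, and with the GC trend removed into 9 above 0 and 9 below.

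Of 30 further replisome and initiation genes, 22 were higher, 7 lower and 1 equal, with a median of 0.13. Centred, 15 were higher and 15 lower, and with the GC trend removed 10 were above 0 and 20 below. Supt16, a histone chaperone subunit (0.68), and Top1, the topoisomerase that relaxes supercoils (0.62), were 1.5-fold higher. Rnaseh2c, a subunit of the nuclease that removes ribonucleotides from DNA, was more than 2-fold lower, at 6.43 against 18.5 from 751 and 2940 counts, with a log2 ratio of −1.39 (−1.49 to −1.29) and −1.29 with the GC trend removed. Pold4, the small subunit of polymerase δ, was at 28.4 and 44.1 (−0.62). Exons of Rnaseh2c overlap Kat5 on the opposite strand over 24.8% of their length, and those of Pold4 overlap another annotated gene on the same strand over 24.6%.

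Of 27 further genes of nucleotide metabolism, 18 were higher and 9 lower, with a median of 0.21. Centred, 16 were higher and 11 lower, and with the GC trend removed 13 were above 0 and 14 below. Samhd1, which degrades deoxynucleotides and is known to respond to interferon, was the one past 2-fold, at FPKM 19.4 against 7.20 from 12054 and 6090 counts, with a log2 ratio of 1.32 (1.28 to 1.36). Gmps, of guanine nucleotide synthesis, was at 5.20 and 2.36 (0.88). Dtymk, the thymidylate kinase, had the lowest log2 ratio of the list, at 7.68 and 11.4 (−0.52).

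Of 20 checkpoint and fork repair genes, 18 were higher and 2 lower, with a median of 0.21, the highest being Hus1 (1.38 and 0.61, 0.56), part of a checkpoint clamp. Centred, 14 of the 20 were higher and 6 lower. None was 1.5-fold different on the log2 scale of (FPKM + 1), whereas by the plain ratio 9 of the 20 were 1.5-fold higher, against 25.8% of all genes tested, with Hus1 at 1.18 log2 units. After the GC trend was removed, 7 were above 0 and 13 below. Levels in this list were low, with a median FPKM of 1.16 and 0.75, so that split rests on the added 1 as well. Of 13 genes of chromatin assembly at forks, 10 were higher and 3 lower, with a median of 0.21. Centred, 8 were higher and 5 lower, and with the GC trend removed 5 were above 0 and 8 below. Of 10 S phase cyclins, kinases and their inhibitors, 7 were higher and 3 lower, with a median of 0.08. The split turned to 3 higher and 7 lower when centred, and to 2 and 8 with a median of −0.22 when the GC trend was removed. Among these 10, Cdkn1a, which encodes the CDK inhibitor p21 that also binds PCNA, was 1.5-fold higher, at 258 and 157 (0.71, 0.69 to 0.73), and cyclin E1 (Ccne1) was at 10.6 and 12.6 (−0.23).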

How the data were processed

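The authors deposited, for each of 2 libraries, raw counts per gene and FPKM values rounded to 2 decimals. The paper's methods name STAR and FeatureCounts on mm10, whereas the submitters' processing notes list cutadapt 1.9, HISAT2 2.2.1, StringTie 2.1.6, DESeq2 and edgeR. The library kit named in the paper is a stranded one. Use of strand in the counting and the annotation release are not given in the sources used here. Dividing deposited counts by merged exon length (GENCODE M21) and a fixed total gave the FPKM to within 1% for 98.0% of 11063 and 98.2% of 10629 genes. Because exon lengths merge all annotated exons, long rarely used exons lower the FPKM of a gene.

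Libraries were compared by log2 of (FPKM + 1), a scale that understates changes of low genes. With 1 library per group, no model was fitted. Intervals are exact Clopper-Pearson at 95%, from the split of each gene's counts between libraries, and cover counting error only. GC content was that of the longest GENCODE M21 transcript, and its trend was the median of expressed genes in 20 bins. Subtracting it from low genes, whose ratios the added 1 narrows, can place them below 0. Shared sequence was measured in 31-base words. The text names all 48 genes, Tgfbr3, and of other lists the genes past 2-fold and up to 3 at each end, besides markers. Members and lists were chosen with earlier results of these data known. The 5 listed marker genes Pax7, Myf5, Myod1, Actc1 and Sox10 were not analysed here. Functions were tested on simulated data. Python 3.11.15, scipy 1.17.1, R 4.3.3 and edgeR 4.0.16 (TMM factors only) were used.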

Additional observations from a re-analysis of the deposited data

How the results depend on the processing

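No paired analysis was possible because each group is 1 library. The median log2 ratio of the 48 genes, 0.10 as reported, was −0.025 when centred, −0.036 on CPM with TMM factors, −0.11 with the GC trend removed and −0.013 with the exon length trend removed. In the same order, the medians of genes at FPKM 1 or more in each library were 0.13, 0, −0.063, −0.005 and −0.010. The number of genes above 0, 32 as reported, was 21 with TMM factors, 16 with the GC trend removed and 19 of the 26 genes that share under 5% of their words. The number 1.5-fold higher, 1 as reported, was 6 with a pseudocount of 0.1 or 0.01, 7 by the plain ratio, 4 when that ratio was centred, 3 with FPKM rescaled to a common sum, 6 on CPM, 3 with TMM factors, 0 with the GC trend removed and 0 among the 26 genes, which leave out Orc4. The number 1.5-fold lower, 0 as reported, was 1 with either smaller pseudocount, by the plain ratio, when centred and on CPM, and 2 with TMM factors or by the centred plain ratio. At 2-fold, 0 genes were higher and 0 lower as reported, while 2 were higher by the plain ratio or with a pseudocount of 0.01, and 1 with a pseudocount of 0.1, on CPM, with TMM factors or by the centred plain ratio. At a looser log2 threshold of 0.32, 12 were higher and 2 lower. Over the planned settings 10 of the 48 genes kept a value above 0, 11 kept one below it and 27 had both. Shares of all genes past 1.5-fold are given above for the reported, plain and centred ratios only. Counts under the other settings have no such share beside them, and do not show how the 48 stand against the typical gene. The centred plain ratio and the set of 26 genes were chosen after seeing the data.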
